A study of Mus musculus with 4 samples.

Results

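The mouse histone 1 gene cluster on chromosome 13 holds most of the replication-dependent histone genes. Its H3K4me3 peaks were described here in macrophages with and without the methyltransferase Wbp7. Members were all peaks that overlapped chromosome 13 from 21800000 to 22140000 (the first window, 340 kb) or from 23610000 to 23870000 (the second window, 260 kb), in the mm9 build. Peaks of the 4 deposited lists, 1 list per library, that shared at least 1 base were joined into regions, which gave 63 regions in the windows out of 18786 in the genome. The windows held 71 of 17316 peaks in untreated Wbp7+/- cells and 73 of 17313 in LPS-treated Wbp7+/- cells. They held 56 of 14599 peaks in untreated Wbp7-/- cells and 61 of 15086 in LPS-treated Wbp7-/- cells.

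All 4 groups were primary macrophages grown from mouse bone marrow and taken on day 7 of differentiation, on a mixed background, mainly C57BL/6 with a small part of 129/Ola, per the labels. Cells of Wbp7+/- mice have 1 functional copy of Wbp7 (also called Kmt2b), cells of Wbp7-/- mice have none, and no Wbp7+/+ group was analysed here. Each genotype was sampled untreated and after lipopolysaccharide (LPS), part of the outer membrane of Gram-negative bacteria and sensed by macrophages, at 10 ug/ml, for 4 h by the labels. The track line of the LPS-treated Wbp7+/- list names 24 h, so its LPS time is uncertain, and every comparison with that list carries this doubt. Each group was 1 library, so no difference given here has a replicate check and no test between groups was run. The labels do not say how the deletion was made or how many mice gave a library, and the labelled cell type was not checked against marker genes. Where a peak was weaker, fewer cells with the mark and less mark per cell cannot be told apart.

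H3K4me3, trimethylation of lysine 4 on histone H3, marks the promoters of active and poised genes. Wbp7 is among the enzymes of the MLL family that place it. The replication-dependent histone genes encode the core histones H2A, H2B, H3 and H4, around which DNA is wrapped, and the linker histone H1, which binds the DNA between nucleosomes. They are short genes without introns, lie close together, are transcribed mainly while DNA is copied, and give mRNAs that end in a stem-loop in place of a poly(A) tail.

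The gene table used here is of another build (GRCm38.p6), so it served for names, gene order and promoter sequences only, and no region was assigned to a gene. In its order along chromosome 13, histone genes came in 3 large runs parted by over 100 kb. Beyond them lay the pair H2bc1 and H2ac1 and, apart from it, 1 histone pseudogene, which are left out of the counts here. The 3 runs held 18, 5 and 29 protein-coding histone genes, 52 in all, with 12 for H2A, 14 for H2B, 9 for H3, 11 for H4 and 6 for H1. Between the first and the second run lay 31 tRNA genes and the protein-coding genes Zfp184 (a zinc finger protein), Pom121l2 and Prss16 (a serine protease of the thymus). Between the second and the third run, 36 of 41 protein-coding genes were Vmn1r genes, which encode vomeronasal receptors. The third run enclosed Hfe, which encodes a regulator of iron uptake.

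Promoter sequences from RefSeq (GRCm38.p6, 250 bases before to 50 after the gene start) were found for 49 of the 52 genes. The CCAAT box (CCAAT, both strands) was in the promoters of all 12 H2A, all 13 H2B, all 7 H3 and all 6 H1 genes with an entry, but of 3 of the 11 H4 genes. Over all 27025 genes with an entry, 41.1% held it. A TATA box (TATAAA, both strands) was in 29 of 49 promoters, against 15.7% of all genes. The octamer (ATTTGCAT, both strands) was in 5 of 13 H2B and 4 of 12 H2A promoters, in none of the H1, H3 and H4 promoters, and in 1.97% of all genes. In 9 places an H2A and an H2B gene lay side by side and pointed away from each other, so that these share the DNA between them and its motifs. As single examples, the first gene of each class in the first run is given, with H2A standing also for the H2B gene H2bc13 on its other side. The 200 bases upstream of the gene start are printed 5′ to 3′ on the gene's strand, with matches to any of the 3 motifs in capitals. The positions, in GRCm38.p6, are chr13:21716212-21716411 (+ strand) for H2ac13, chr13:21717428-21717627 (+) for H3c10, chr13:21734834-21735033 (+) for H4c11 and chr13:21780626-21780825 (- strand) for H1f5. They must not be set against the mm9 positions of the peaks.
H2ac13: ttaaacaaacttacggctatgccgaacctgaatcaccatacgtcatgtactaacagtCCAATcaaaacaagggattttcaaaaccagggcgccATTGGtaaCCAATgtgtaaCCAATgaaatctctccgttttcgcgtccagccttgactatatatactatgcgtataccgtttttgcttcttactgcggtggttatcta
H3c10: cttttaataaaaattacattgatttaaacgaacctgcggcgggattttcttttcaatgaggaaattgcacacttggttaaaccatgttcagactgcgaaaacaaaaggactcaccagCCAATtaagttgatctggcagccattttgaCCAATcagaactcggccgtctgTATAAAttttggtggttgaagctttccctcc
H4c11: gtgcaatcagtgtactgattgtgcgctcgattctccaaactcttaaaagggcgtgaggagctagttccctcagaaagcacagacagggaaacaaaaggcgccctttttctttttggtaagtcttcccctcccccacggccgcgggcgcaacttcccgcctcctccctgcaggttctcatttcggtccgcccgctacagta
H1f5: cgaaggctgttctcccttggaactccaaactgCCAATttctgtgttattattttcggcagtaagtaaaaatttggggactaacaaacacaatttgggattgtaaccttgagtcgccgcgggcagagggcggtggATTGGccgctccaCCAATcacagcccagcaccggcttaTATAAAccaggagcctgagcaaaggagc
The H2ac13 stretch holds 4 CCAAT matches, that of H1f5 holds 3 with 1 TATA match, and that of H3c10 holds 2 with 1 TATA match. The H4c11 stretch has no match to these letters. It does not stand for its class, since 8 of 11 H4 promoters held a TATA box over the 300 bases of an entry.

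H3K4me3 peaks were dense in both windows. In untreated Wbp7+/- cells the first window held 109 and the second 131 peaks per Mb, against 7.48 per Mb in the stretch between them. In untreated Wbp7-/- cells these densities were 85.3, 104 and 4.08 per Mb. Of the 63 regions, 51 (81.0%) lay within 5 kb of another region, whereas 29.3% of all regions did. The peaks were narrower than elsewhere, with a median width of 1067 bp in untreated Wbp7+/- cells against 1768 bp over that whole list, and of 1443.5 against 2106 bp in untreated Wbp7-/- cells.

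Scores in the cluster were low for the genome. The score, in the fifth column of each list, is the peak caller's own value, which by the convention of MACS grows with both enrichment and the unknown sequencing depth. It piles up at 3100, and peaks of 3100 or above were treated as 1 class, the ceiling. At the ceiling stood 17 of 71 peaks in untreated Wbp7+/- cells (23.9%, exact 95% binomial interval 14.6 to 35.5), against 56.0% of that whole list. The numbers were 12 of 73 after LPS (16.4%, list 54.8%), and in Wbp7-/- cells 14 of 56 untreated (25.0%, list 62.0%) and 11 of 61 after LPS (18.0%, list 59.3%). Intervals cover counting error over peaks only. Only 7 of the 63 regions were at the ceiling in all 4 lists, 11.1% against 44.8% of all regions.

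**Figure D1:**
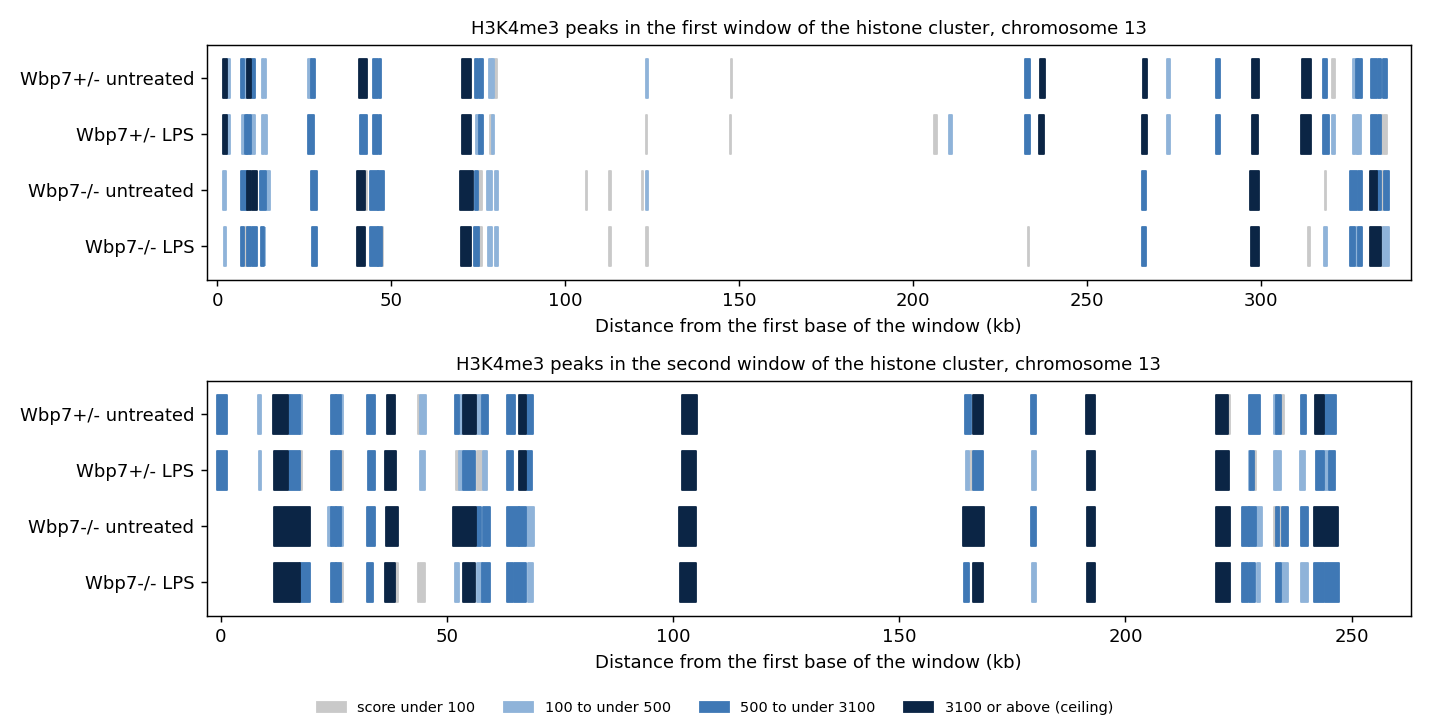
Each bar is an H3K4me3 peak of 1 list (rows), drawn at its distance in kb from the first base of the first window (top) or the second window (bottom) and shaded by score class. In the first window, the crowded ends carry peaks in every row, and the middle has fewer bars in the Wbp7-/- rows.

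The first comparison asked which peaks of the cluster were called with and without Wbp7. A peak was present in all 4 lists at 41 of 63 regions, 65.1% against 65.4% of all regions. At 9 regions both Wbp7+/- lists and neither Wbp7-/- list had a peak, which is 16.7% (7.92 to 29.3) of the 54 regions in both Wbp7+/- lists, against 13.6% over the genome. The reverse was seen at 1 region, 2.27% of 44 against 2.96%. When each list was held to the length of the shortest, both patterns were found at 6 regions, so the difference between their counts was not seen under that setting. By peaks, 14 of the 71 in untreated Wbp7+/- cells had no Wbp7-/- partner (19.7%, 11.2 to 30.9, list 19.7%), as did 14 of 73 after LPS (19.2%, 10.9 to 30.1, list 19.7%). Conversely, 6 of the 56 peaks in untreated Wbp7-/- cells had no Wbp7+/- partner (10.7%, 4.03 to 21.9, list 6.93%), and 8 of 61 did after LPS (13.1%, 5.84 to 24.2, list 8.00%). Each of these shares has an interval that holds the value of the whole list. With lists of equal length, 10 untreated and 15 LPS-treated Wbp7-/- peaks lacked a partner, and with peaks within 1 kb counted as partners 2 and 1 did. After LPS, both settings left 9 Wbp7+/- peaks without a partner. None of the counts under these settings was made over the whole lists, so whether the cluster moved apart from the lists is not known. Because lists were called separately, a missing peak is one below the caller's threshold and need not be missing H3K4me3.

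The differences were unevenly placed along the cluster, and the stretches used to describe this were chosen after the values were seen. The first window was divided into a first stretch from 21801596 to 21880740 (16 regions), a middle stretch from 21905952 to 22121405 (16 regions) and a last stretch from 22125523 to 22136960 (5 regions). In the middle stretch, peaks covered 13055 bp in untreated Wbp7+/- and 15245 bp in LPS-treated Wbp7+/- cells. They covered 5557 and 5886 bp of it in Wbp7-/- cells, 0.426 times the Wbp7+/- length untreated and 0.386 times after LPS. In the first stretch the order was opposite, with 19909 and 18071 bp in Wbp7+/- and 23919 and 20448 bp in Wbp7-/- cells, ratios of 1.201 and 1.13. In the last stretch peaks covered 6361 and 5558 bp in Wbp7+/- and 8372 and 7949 bp in Wbp7-/- cells, ratios of 1.32 and 1.43. The second window held 50273 and 46458 bp in Wbp7+/- and 57266 and 53448 bp in Wbp7-/- cells, ratios of 1.14 and 1.15. Over all peaks of the genome the ratios were 0.970 untreated and 0.971 after LPS. The whole first window held 39325 and 38874 bp in Wbp7+/- and 37848 and 34283 bp in Wbp7-/- cells. Peaks thus covered 11.6 and 11.4% of it in Wbp7+/- and 11.1 and 10.1% in Wbp7-/- cells. Because the stretches were cut with the values known, the contrast between them is a description only.

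**Figure D2:**
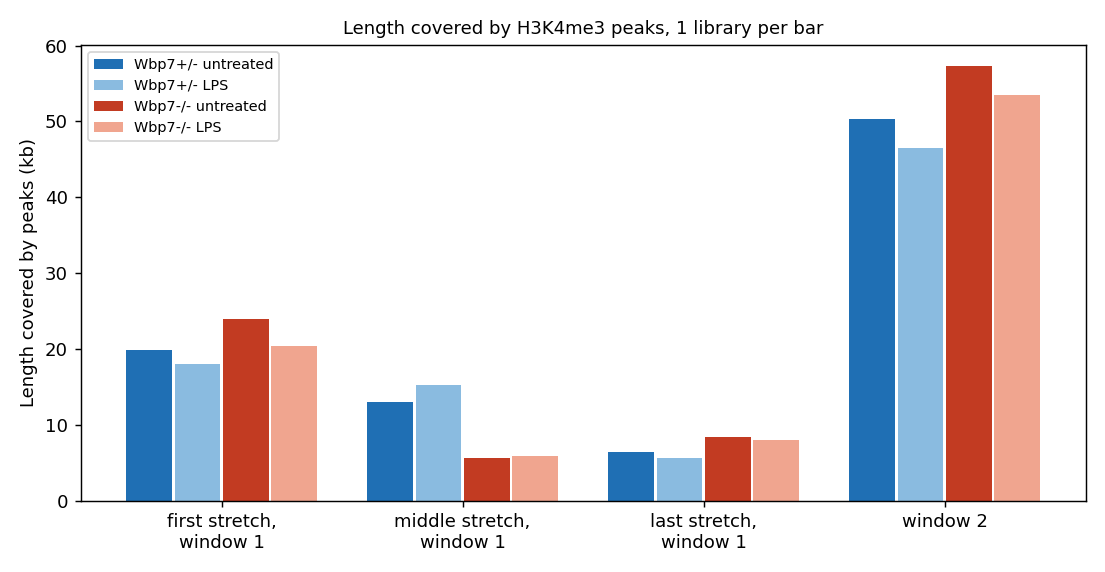
Length covered by H3K4me3 peaks (kb) in the 3 stretches of the first window and in the second window, with 1 bar for each library. The 3 stretches were chosen after the values were seen. In the middle stretch the Wbp7-/- bars stand for 5557 and 5886 bp and the Wbp7+/- bars for 13055 and 15245 bp, whereas elsewhere the Wbp7-/- bar is the longer in each treatment.

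The middle stretch held the 2 regions of the cluster with ceiling peaks in Wbp7+/- cells that had no peak in untreated Wbp7-/- cells. The region from 22111602 to 22114374 carried Wbp7+/- peaks of 2581 bp (untreated) and 2773 bp (LPS), both at the ceiling. It had no peak in untreated Wbp7-/- cells and one of 801 bp with a score of 65.01 after LPS. The region from 22036324 to 22037788 had ceiling peaks of 1370 and 1396 bp in Wbp7+/- cells and none in Wbp7-/- cells. These were the 2 ceiling peaks of 17 in untreated Wbp7+/- cells without a Wbp7-/- counterpart (11.8%, 1.46 to 36.4), against 70 of 9695 (0.722%) in that whole list. In each lower score class the cluster's share without a counterpart was below that of the list. It was 3 of 30 (10.0%, list 22.4%) for scores from 500 to under 3100, 6 of 18 (33.3%, list 46.8%) from 100 to under 500, and 3 of 6 (50.0%, list 66.8%) under 100. The exact intervals of these 3 classes hold the list values, and untreated only the ceiling class lay above its list value. After LPS, 1 of 12 ceiling peaks in Wbp7+/- cells had no counterpart (8.33%, 0.211 to 38.5), and this interval holds the list value of 0.865%. The lower classes again lay below the list, at 2 of 24 (8.33%, list 22.2%), 8 of 24 (33.3%, list 45.3%) and 3 of 13 (23.1%, list 64.0%). Of these 3, only the interval under 100 (5.04 to 53.8) left out its list value. Weak peaks of the cluster were in part pieces of regions with several peaks, as those scored 67.94 and 86.3 in LPS-treated Wbp7+/- cells. Whether this bears on the shares was not tested. The intervals cover counting error over peaks only. Neighbouring peaks of 1 library are not replicates, so the intervals do not test the cluster against the list.

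The region from 22032120 to 22033544 had Wbp7+/- peaks of 1425 and 1375 bp with scores of 1660.13 and 1503.03. No peak was called there in untreated Wbp7-/- cells, and after LPS it was 371 bp wide with a score of 97.7. From 22086951 to 22088163, peaks of 1137 and 1213 bp scored 710.43 and 606.45 in Wbp7+/- cells alone. The region from 22072952 to 22073875 (924 and 764 bp, scores 379.77 and 288.89) was likewise called in Wbp7+/- cells alone. So were the weak regions from 22120529 to 22121405 (scores 76.21 and 107.15) and from 21947480 to 21947853 (66.67 and 70.87). Of the 54 regions that both Wbp7+/- lists held in the cluster, the middle stretch had 11, and 7 of these 11 lacked a peak in 1 or both Wbp7-/- lists. Over the whole cluster 13 of 54 did (24.1%, 13.5 to 37.6), against 18.3% of such regions in the genome. The stretch was chosen for these differences, so its own count is a description.

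Strong regions beside these kept their peaks. From 22065858 to 22067195 the widths were 1174 and 1265 bp in Wbp7+/- and 1121 and 1181 bp in Wbp7-/- cells, with scores of 3100, 3190.86, 3004.12 and 2458.1 in the same order. From 22096998 to 22099399 all 4 peaks were at the ceiling, with 1868 and 1758 bp in Wbp7+/- and 2402 and 2125 bp in Wbp7-/- cells. The region from 22117867 to 22119490 was called in every list, but measured 1062 and 1579 bp in Wbp7+/- against 427 and 646 bp in Wbp7-/- cells. Its scores were 829.33 and 1357.85 against 68.65 and 226.68. The fourth region of the stretch in all lists, from 21923268 to 21923703, was weak, with widths of 307 to 436 bp and scores of 60.95 to 208.79.

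The middle stretch also held calls in single genotypes at low scores. A peak was called in both Wbp7-/- lists and in no Wbp7+/- list from 21912606 to 21913050, with scores of 67.48 and 63. Peaks in untreated Wbp7-/- cells alone lay from 21905952 to 21906278 (score 75.84) and from 21922052 to 21922450 (50.43). Peaks in LPS-treated Wbp7+/- cells alone lay from 22005940 to 22006811 (84.25) and from 22010427 to 22011218 (142.63). All of these peaks scored under 100 except the last, at 142.63. In gene order, the tRNA genes with Zfp184, Pom121l2 and Prss16 also lie between runs of histone genes, but whether they lie at these regions was not tested, since the builds differ.

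**Figure D3:**
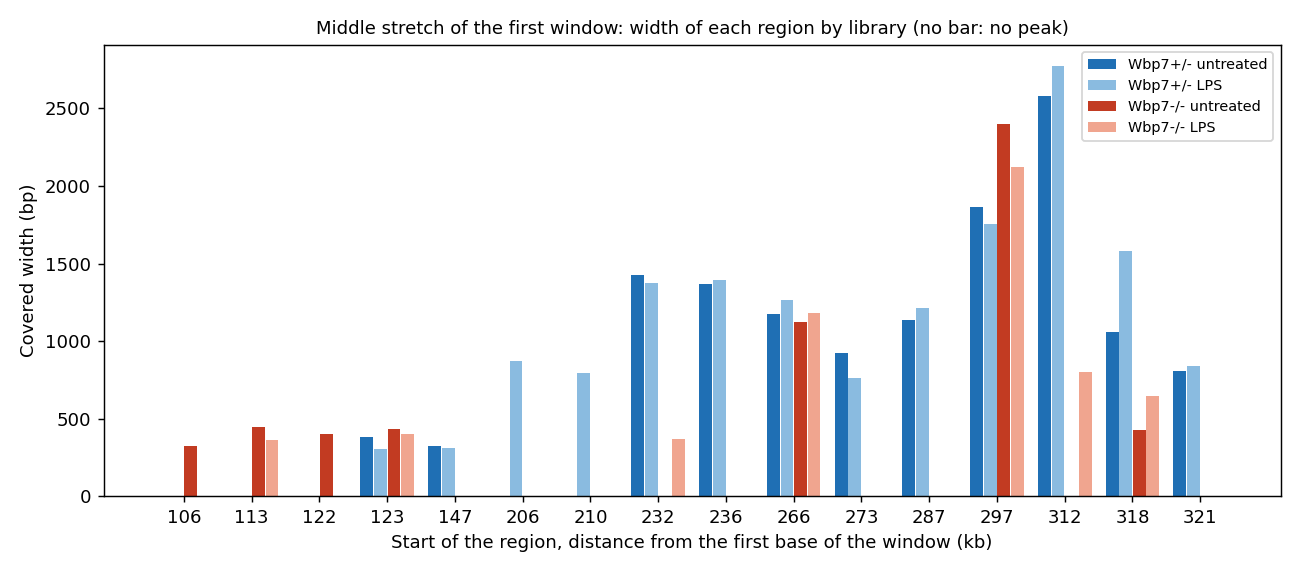
Covered width (bp) of the 16 regions of the middle stretch by library, ordered by the distance of their start from the first base of the first window (kb). The tall Wbp7+/- pairs at 232, 236 and 312 kb stand over absent or short Wbp7-/- bars, while the regions at 266 and 297 kb have bars of all 4 libraries.

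Outside the middle stretch, 10 regions lacked a peak in at least 1 list. In the first stretch, the region from 21802711 to 21803551 (841 and 754 bp, scores 375.18 and 349.34) and that from 21878974 to 21879562 (525 and 589 bp, scores 103.75 and 151.06) had peaks in Wbp7+/- cells alone. The neighbour of the latter, from 21879677 to 21880740, lacked a peak in LPS-treated Wbp7+/- cells only, with 608 bp in untreated Wbp7+/- and 1064 and 892 bp in Wbp7-/- cells. In the second window, the region from 23609136 to 23611493, which crosses the window's edge, was the strongest called in Wbp7+/- cells alone. Its peaks were 2289 and 2358 bp wide with scores of 1192.85 and 1178.55. The region from 23618229 to 23618909 was also called in Wbp7+/- cells alone (670 and 518 bp, scores 301.32 and 262.59).

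From 23653970 to 23655363, no peak was called in untreated Wbp7-/- cells, and the others measured 1394 and 1311 bp in Wbp7+/- and 1154 bp in LPS-treated Wbp7-/- cells. The region from 23842773 to 23843210 lacked a peak in LPS-treated Wbp7-/- cells, with scores of 169.38, 113.34 and 88.05 in the others. The region from 23633664 to 23634327 was called in untreated Wbp7-/- cells alone, with a score of 104.75. From 23653583 to 23653930, weak peaks were called in 2 lists, untreated Wbp7+/- (score 56.48) and LPS-treated Wbp7-/- (64.36). The region from 23844502 to 23845964 measured 402 bp in untreated Wbp7+/- and 1374 and 1438 bp in Wbp7-/- cells, with scores of 57.72, 1254.94 and 495.5 and no peak in LPS-treated Wbp7+/- cells. Its untreated width ratio, 3.42, was the highest of the cluster.

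The next comparison asked how wide the peaks were where every list had one. Of these 41 regions, 20 (48.8%) were more than 1.2-fold wider in untreated Wbp7-/- than in untreated Wbp7+/- cells, against 13.9% of all 12294 such regions, and 3 were narrower (7.32%, against 11.2%). After LPS, 18 were wider (43.9%, against 17.4%) and 5 narrower (12.2%, against 11.5%). The median width untreated was 1684 bp in the Wbp7-/- list against 1268 bp in the Wbp7+/- list, and after LPS 1552 against 1311 bp. The median ratio was 1.199 untreated and 1.13 after LPS, while over all regions it was 1.03 and 1.04. The cluster's regions are mostly below the score ceiling, so all regions below the ceiling in at least 1 list are a nearer comparison. Of these 3871 regions, 20.1% were wider and 25.6% narrower untreated, and 22.4% and 26.4% after LPS. The 41 regions were not filtered in this way, and 7 of them were at the ceiling in all 4 lists.

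The same 15 regions were wider in both treatments, 75.0% of the 20 untreated and 83.3% of the 18 after LPS. How many of all regions were wider in both treatments was not counted, so this overlap is a description of the cluster only. The 2 treatments are separate libraries of each genotype. At a fold of 1.5, 6 of the 41 regions were wider untreated and 8 after LPS, against 2.95% and 3.85% of all regions. Narrower at that fold were 2 untreated and 3 after LPS, against 4.08% and 4.03% of all regions. Joining peaks within 1 kb left 27 regions in every list, with 16 wider untreated (59.3%, against 14.2%) and 13 after LPS (48.1%, against 17.9%). Scores were more often higher than lower in Wbp7-/- cells. Of the 41 regions, 12 were at the ceiling in both untreated lists, and of the rest 19 scored higher and 10 lower in Wbp7-/- cells. Over all such regions 1038 scored higher and 2465 lower. After LPS, 23 scored higher and 11 lower in the cluster, against 1392 and 2319 over all. The depth of each library is unknown and was not tested for its part in widths or scores.

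**Figure D4:**
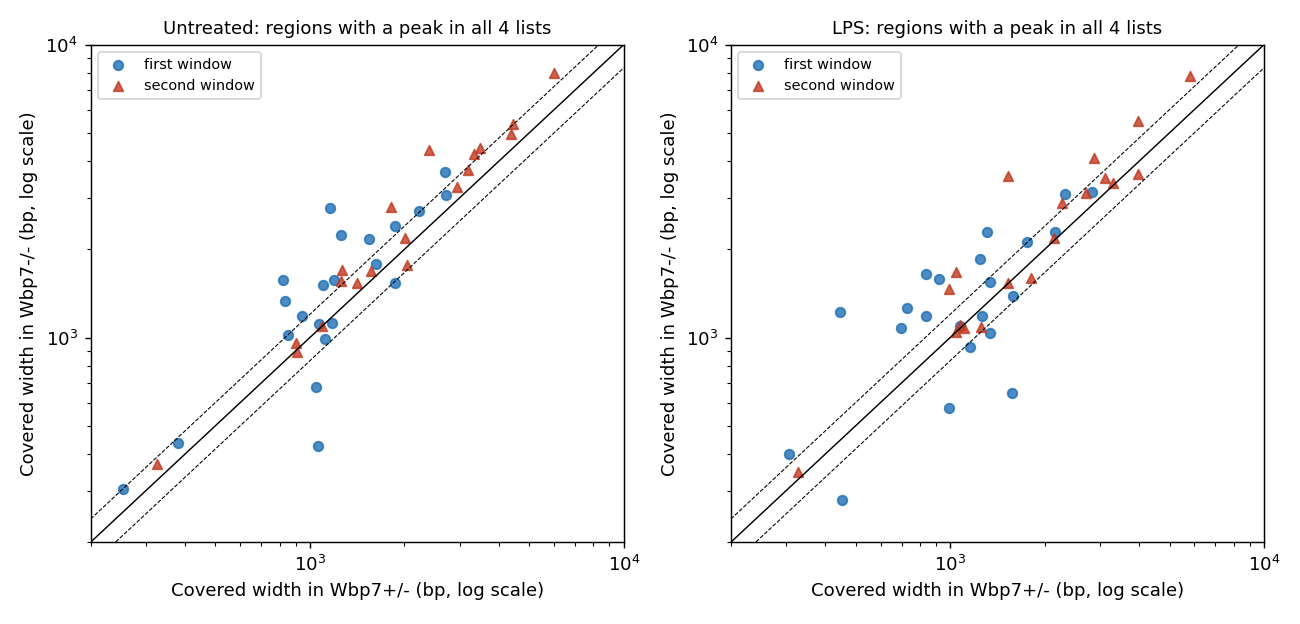
Covered width (bp, log axes) in Wbp7-/- against Wbp7+/- cells for the 41 regions with a peak in all 4 lists, untreated (left) and after LPS (right). The solid line marks equal widths and the dashed lines a 1.2-fold difference. Above the solid line lie 34 points untreated (82.9%) and 30 after LPS (73.2%), against 62.0% of all regions with a peak in all 4 lists in either treatment.

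Among regions of all 4 lists, the highest untreated ratio was at 21812129 to 21815090, at 1156 bp with and 2768 bp without Wbp7 (2.39). After LPS it was reversed there, at 1344 and 1034 bp (0.769). The region from 21846294 to 21847864 measured 819 and 729 bp in Wbp7+/- and 1571 and 1265 bp in Wbp7-/- cells, ratios of 1.92 and 1.74. From 23835678 to 23840139, peaks covered 2390 and 1525 bp in Wbp7+/- and 4363 and 3568 bp in Wbp7-/- cells (1.83 and 2.34). The region from 22125523 to 22127870, the first of the last stretch, measured 1260 and 1249 bp in Wbp7+/- and 2239 and 1850 bp in Wbp7-/- cells. Its scores were 512.63 and 418.48 against 2336.38 and 1267.39. In these last 3 regions both Wbp7-/- widths lay above both Wbp7+/- widths.

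The lowest untreated ratio, 0.402, was that of the region from 22117867 described above. The next, 0.648, was at the first region of the cluster, from 21801596 to 21802644. Its peaks were 1049 and 995 bp wide and at the ceiling in Wbp7+/- cells, and 680 and 573 bp wide with scores of 251.28 and 307.93 in Wbp7-/- cells. The region from 23842773, with no LPS-treated Wbp7-/- peak, had an untreated ratio of 0.764. The region from 21826144 to 21828550 measured 1868 and 1586 bp in Wbp7+/- and 1540 and 1384 bp in Wbp7-/- cells (0.824 and 0.873). Another, from 23801273 to 23803307, was at the ceiling in every list, with 2035 and 1804 bp against 1767 and 1603 bp (0.868 and 0.889). The first stretch thus held regions of both low and high ratio.

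The widest regions of the cluster lay in the second window and were often split into several peaks. From 23621690 to 23629695 all lists were at the ceiling, with 6003 bp in 3 peaks and 5789 bp in 3 peaks in Wbp7+/- cells. In Wbp7-/- cells the region was 1 peak of 7993 bp untreated and 2 peaks covering 7815 bp after LPS. From 23851566 to 23857244, peaks covered 4439 and 3970 bp in Wbp7+/- and 5371 and 5489 bp in Wbp7-/- cells, with 2, 3, 1 and 2 peaks in that order. From 23661435 to 23666440, they covered 4386 and 3969 bp against 4955 and 3619 bp, with 3, 3, 1 and 2 peaks. From 23774181 to 23778632, the lengths were 3479 and 3294 against 4452 and 3383 bp, with 2, 3, 1 and 2 peaks. In these 4 regions untreated Wbp7-/- cells had 1 peak where the other lists had 2 or 3. The region from 23673265 to 23677570 had 2 peaks in every list and covered 3323 and 2881 bp in Wbp7+/- and 4216 and 4115 bp in Wbp7-/- cells, with a lower score in Wbp7-/- cells (2556.19 and 2122.21, against 3100 and 3199.86). From 23829918 to 23833211, all lists were at the ceiling, with 2949 and 2716 bp against 3270 and 3113 bp.

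The widest regions of the first window came next. From 22131442 to 22134537, peaks covered 2712 and 2325 bp in Wbp7+/- and 3075 and 3087 bp in Wbp7-/- cells. From 21869724 to 21873398 they were at the ceiling in all lists, at 2698 and 2832 bp against 3675 and 3147 bp. The region from 21840138 to 21843069 covered 2221 and 2160 bp against 2705 and 2294 bp. At all 3 regions both Wbp7-/- lengths were above both Wbp7+/- lengths. The region from 22111602, whose untreated Wbp7-/- peak was absent, and that from 22096998, both described above, complete the widest of this window.

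The lowest scores of the cluster lay close to the lowest of the lists. The lowest were the untreated Wbp7-/- peak from 21922052 (50.43) and the LPS-treated Wbp7+/- peak of the last region of the first window, from 22135193 to 22136960 (50.87). That last region scored 695.14 in untreated Wbp7+/- cells and 1169.82 and 330.83 in Wbp7-/- cells. Its neighbour, from 22134675 to 22135131, was narrow in every list, at 253 to 451 bp, with scores of 129.98 and 51.91 in Wbp7+/- and 51.61 and 63.39 in Wbp7-/- cells. The region from 21875106 to 21876281 scored 652.29 and 794.57 in Wbp7+/- but 65.58 and 74.28 in Wbp7-/- cells, with widths of 1117 and 1156 bp against 988 and 929 bp.

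The last comparison set LPS-treated beside untreated cells of each genotype, and it shares its libraries with the comparisons of genotypes. Few calls differed. In Wbp7+/- cells, 4 of 71 untreated peaks had no LPS peak (5.63%, 1.56 to 13.8, list 7.47%), and 2 of 73 LPS peaks had no untreated peak (2.74%, 0.334 to 9.55, list 8.95%). In Wbp7-/- cells these were 6 of 56 (10.7%, 4.03 to 21.9, list 6.48%) and 4 of 61 (6.56%, 1.82 to 15.9, list 8.60%). Every peak of these 16 scored under 500. With peaks of a score of at least 100 alone, 8 untreated Wbp7+/- peaks lacked an LPS peak and 1 LPS-treated Wbp7-/- peak lacked an untreated one. With peaks within 1 kb counted as partners, untreated peaks without an LPS peak were 0 in Wbp7+/- and 1 in Wbp7-/- cells. The shares of the whole lists under these 2 settings were not computed.

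Widths with and without LPS were then compared in each genotype. Of the 41 regions of all lists, 9 were narrower by more than 1.2-fold in Wbp7+/- cells (21.95%, against 11.7% of all regions) and 4 wider (against 9.68%). In Wbp7-/- cells 7 were narrower (17.1%, against 9.90%) and 2 wider (against 10.0%). Among all regions below the ceiling in at least 1 list, 18.5% were narrower in Wbp7+/- and 18.9% in Wbp7-/- cells. Wider were 13.9% and 16.5% of them, in the same order. This set is not matched to the 41 regions, of which 7 were at the ceiling in all 4 lists. Whether score plays a part in the LPS widths was not tested. Only 1 of the 41 regions was narrower in both genotypes, a count that was not made over all regions. The median ratio was 0.947 in Wbp7+/- and 0.940 in Wbp7-/- cells. Regions at the ceiling in both lists compared, 10 in Wbp7+/- and 11 in Wbp7-/- cells, were set aside. At the rest, scores after LPS were lower at 26 regions and higher at 5 in Wbp7+/- cells, and lower at 24 and higher at 6 in Wbp7-/- cells. Over all regions, 2207 were lower and 971 higher in Wbp7+/- cells, and 2258 were lower and 1362 higher in Wbp7-/- cells. At the region from 21809800 to 21811391, the score was 796.88 untreated and 140.83 after LPS in Wbp7+/-, and 3130.27 and 1423.77 in Wbp7-/- cells. At a fold of 1.5, 2 regions were narrower in Wbp7+/- and 1 in Wbp7-/- cells.

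Neighbouring peaks in the cluster were often parted by short gaps, a measure chosen after values were seen. In untreated Wbp7+/- cells, 26 of 69 neighbouring pairs of peaks (37.7%) lay at most 250 bp apart, against 5.56% on the rest of chromosome 13 and 7.00% over the whole list. The share was 36.6% in LPS-treated Wbp7+/- cells (26 of 71), 37.04% in untreated Wbp7-/- cells (20 of 54) and 32.2% in LPS-treated Wbp7-/- cells (19 of 59). Such a share rises with the density of peaks, and pairs of like spacing were not compared. The median gap in untreated Wbp7+/- cells was 1748 bp in the cluster, against 52002 bp on the rest of chromosome 13 and 33815.5 bp over the whole list. Gaps of the 4 lists that shared a base were joined into 46 sites, 73.0 per 100 regions, where the genome had 16.4. Of these sites, 6 (13.04%) held a gap in all 4 lists, against 68 of 3089 (2.20%) over the genome. In order they lay from 21808416 to 21808570, from 21809638 to 21809814, from 21846139 to 21846316, from 21874985 to 21875127, from 22134518 to 22134685 and from 23636567 to 23636669. What lies at these gaps was not analysed here, since no mm9 sequence or annotation was used.

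**Figure D5:**
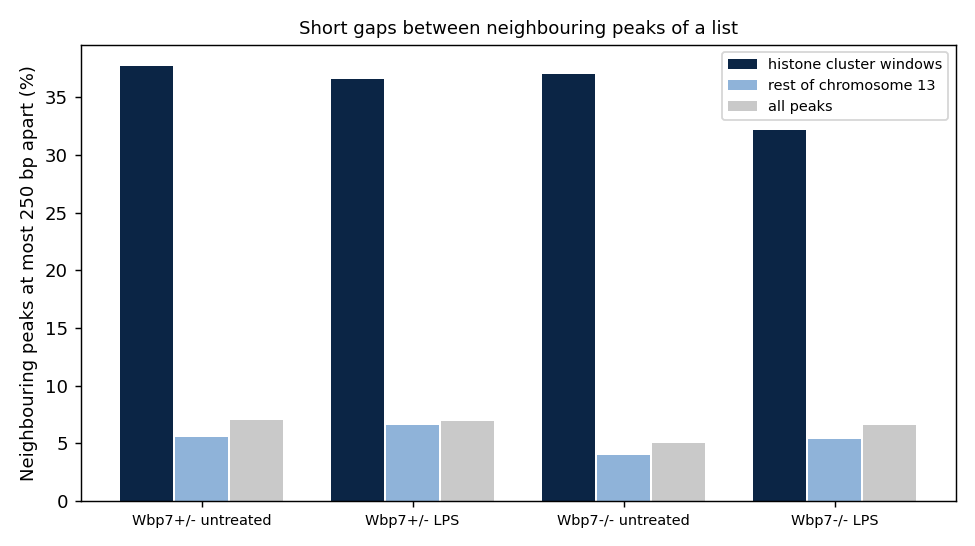
Share of neighbouring peaks of a list that lie at most 250 bp apart (%), for the histone cluster windows, the rest of chromosome 13 and the whole list. The cluster bars lie between 32.2 and 37.7%, and all other bars at or below 7.00%.

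The remaining regions, all with a peak in every list, had untreated width ratios between 0.982 and 1.60 and are in the counts above. At the window edges, the nearest region before the first window was 176 kb away, at the ceiling in all lists. The nearest after it, from 22141460 to 22143823, was only 1.46 kb outside. It was at the ceiling in both Wbp7+/- lists (2327 and 2146 bp) and scored 373.76 and 235.91 in Wbp7-/- cells (1884 and 2004 bp). Before the second window, 1.03 kb outside, a peak from 23608609 to 23608968 was called in untreated Wbp7+/- cells alone, with a score of 89.53. The nearest region after it was 257 kb away.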

How the data were processed

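H3K4me3 was measured by chromatin immunoprecipitation and sequencing in 4 libraries, 1 per group, with groups taken from the labels. Reads were aligned with Bowtie to mm9, per the submitters' processing notes, and peaks were called with MACS in each library separately, per the file headers. The authors deposited each peak with a score, whose formula is not given in the file. Versions and the calling threshold are not stated there. Read numbers were not given either, so depth is unknown. The label of the LPS-treated Wbp7+/- library gives 4 h and its track line 24 h.

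Peaks of the 4 lists that shared at least 1 base were joined into regions, and a list's covered width in a region is the sum of its peak widths. Wider and narrower mean a ratio beyond 1.2. Shares have exact (Clopper-Pearson) 95% intervals from scipy 1.17.1. Groups of 1 library allow no test, and none was made. The work used Python 3.11.15, pandas 2.3.3, numpy 2.4.6 and matplotlib 3.10.9. On simulated data, a copy of the untreated Wbp7+/- list of 17316 peaks, the overlap step found 200 of 200 removed peaks with 0 false losses, and the width step 184 of 184 widened regions. The widening was set beyond the 1.2-fold cut, so this shows only that the steps run as written. Peaks whose widening would have met a neighbour were left out, so that case, which close peaks bring, was not tried.

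Given in full were regions without a peak in at least 1 list, up to 6 regions with more than 1 peak in a list, the 5 widest of each window by untreated Wbp7+/- width, the 5 lowest and 5 highest untreated width ratios, up to 10 regions of lowest score, and the nearest regions outside the windows. The members and lists were chosen with earlier results of these data known. The stretches, the gap length and the motifs were chosen after values were seen. Gene names, order and promoters came from RefSeq tables of GRCm38.p6, and no coordinates were converted. Alternatives were another overlap, a tolerance or joining distance of 1 kb, a minimum score, lists of equal length, wider windows, a fold of 1.5 and another width.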

Additional observations from a re-analysis of the deposited data

Results flagged for a closer look

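At the region from 23653583 to 23653930 on chromosome 13 (mm9), the peak calls went in opposite directions with LPS in the 2 genotypes. In Wbp7+/- cells a peak was called untreated (342 bp, score 56.48) and not after LPS, and in Wbp7-/- cells it was called after LPS (249 bp, score 64.36) and not untreated. This difference was not tested, since each group was 1 library, and both scores lie near the lowest of their lists.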

How the results depend on the processing

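Of 126 values recomputed under alternatives, 92 stayed within 1.5 times the reported value and 34 moved further. These values are of the cluster alone, and most were not set beside the same count over the genome. All 32 values with windows widened by 50 kb and all 8 with 50% of a peak covered were among the 92. Joining peaks within 1 kb gave 41 regions, 27 in every list; of these 2 were narrower in Wbp7-/- after LPS, 2 wider and 5 narrower with LPS in Wbp7+/-, and 1 wider with LPS in Wbp7-/- cells. With scores of at least 100, 2 regions were in Wbp7-/- lists only, 1 LPS-treated Wbp7-/- peak lacked an untreated peak, 8 untreated Wbp7+/- peaks lacked an LPS peak, 3 regions were narrower in Wbp7-/- after LPS, and 1 was wider with LPS in each genotype. With each list held to equal length, 6 regions were in Wbp7-/- lists only, 9 LPS-treated Wbp7+/- peaks lacked a Wbp7-/- peak, and 10 untreated and 15 LPS-treated Wbp7-/- peaks lacked a Wbp7+/- peak. With peaks within 1 kb counted as overlapping, these last 3 were 9, 2 and 1, and untreated peaks without an LPS peak were 0 in Wbp7+/- and 1 in Wbp7-/- cells.

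At a fold of 1.5, 6 regions were wider in Wbp7-/- untreated, 8 wider and 3 narrower after LPS, 1 wider and 2 narrower with LPS in Wbp7+/-, and 1 wider and 1 narrower in Wbp7-/- cells. Width from first to last base left 4 narrower with LPS in Wbp7-/- cells. Peaks of 1000 or above, in place of the ceiling, were 31 untreated and 26 after LPS in Wbp7+/- cells, and 36 and 26 in Wbp7-/- cells. Without the LPS-treated Wbp7+/- list, an alternative chosen after seeing the data, 2 regions were in Wbp7-/- lists only. Except where an alternative by construction uses fewer peaks, a stricter fold or a wider overlap, the cause was not tested. No paired analysis was possible because each group was 1 library, and for the same reason no library could be left out within a group. Read numbers are unknown, so a missing peak near the calling threshold cannot be told apart from a lower depth.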

Other observations

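The 1470 kb between the windows held few peaks. Peaks numbered 11 in untreated and 9 in LPS-treated Wbp7+/- cells, and 6 in each Wbp7-/- list. They covered 19.3 and 19.2 kb in Wbp7+/- cells and 9.31 and 9.57 kb in Wbp7-/- cells. At the score ceiling were 6 in each Wbp7+/- list and 2 in each Wbp7-/- list.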
